A study of Mus musculus with 18 samples.

Results

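The tubulin isotypes described here are 10 genes that encode the building blocks of microtubules, 3 alpha-tubulins (*Tuba1a*, *Tuba1b*, *Tuba4a*) and 7 beta-tubulins (*Tubb2a*, *Tubb2b*, *Tubb3*, *Tubb4a*, *Tubb4b*, *Tubb5*, *Tubb6*). They were taken by name from a table of read counts per transcript, and the 25 transcripts carrying these names, of 116873 in the table, were summed by name. The members are 10 of 35960 gene names or unnamed identifiers. The rule used names and no threshold on a measured value.

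RNA came from whole brains of 10-month-old mice of both sexes on a C57BL/6 background, either wild-type (WT) or homozygous for *Atxn2*-CAG100-KIN (KIN). In this allele, which every cell of the animal carries, an expanded CAG repeat was placed in the mouse *Atxn2* gene. The paper compares littermates of the same sex. Cells of each brain were separated one fraction after another with magnetic beads. Microglia were captured by CD11b and astrocytes by ACSA-2, while neurons were what remained after removal of non-neuronal cells by an antibody cocktail. With 3 libraries for each of the 3 fractions and 2 genotypes, 18 libraries were sequenced by a method that reads RNA near its 3′ end. Each molecule is tagged, so that copies made by PCR are counted once. Ribosomal RNA was depleted and poly(A) tails were added beforehand, so that other RNA, small RNA included, was captured with mRNA.

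Alpha- and beta-tubulin form the dimer from which microtubules are built, and mammals encode each in several genes of nearly the same sequence. The isotypes differ mainly in the acidic tail at the end of the protein, where enzymes remove or restore a tyrosine or add glutamates, and in the cells that use them. *Tubb3* is widely used as a marker of neurons, *Tubb4a* is abundant in myelinating oligodendrocytes, and *Tuba1a* is the main alpha-tubulin of developing neurons. A further layer of control works on the mRNA itself. When free dimers are in excess, TTC5 recognises the first residues of a growing tubulin chain on the ribosome and the mRNA is degraded, so that levels of all isotypes can move together.

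The last 60 coding bases, before the stop codon, encode the tail in which most isotypes differ, and they are shown for *Tuba4a* and 6 beta-tubulins. In reads per kb, described below, the shares of *Tubb3*, *Tubb4a*, *Tubb4b* and *Tubb5* set a fraction apart from both others. The shares of *Tuba4a*, *Tubb2a* and *Tubb2b* overlapped between the fractions. The bases were read from GENCODE M39 transcripts and found identical in the GRCm39 genome, the same assembly as mm39. Each stretch lies in exon 4 of 4 of the canonical transcript. The capitals mark the last codon. *Tuba4a* ends in GAG, which encodes glutamate, and so lacks the terminal tyrosine that the detyrosination cycle acts on.
Tuba4a: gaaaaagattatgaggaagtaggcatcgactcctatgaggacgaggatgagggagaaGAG
Tubb2a: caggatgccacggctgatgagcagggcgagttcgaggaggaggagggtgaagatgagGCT
Tubb2b: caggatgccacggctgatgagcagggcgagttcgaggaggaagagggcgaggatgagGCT
Tubb3: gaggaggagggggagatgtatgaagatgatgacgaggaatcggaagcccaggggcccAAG
Tubb4a: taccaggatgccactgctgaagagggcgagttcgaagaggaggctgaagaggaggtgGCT
Tubb4b: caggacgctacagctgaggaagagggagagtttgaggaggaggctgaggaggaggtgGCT
Tubb5: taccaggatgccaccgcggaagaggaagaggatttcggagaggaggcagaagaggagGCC

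The stretch of *Tuba4a* lies at chr1:75192269-75192328 on the minus strand. Those of the beta-tubulins lie at chr13:34258454-34258513 for *Tubb2a*, chr13:34311457-34311516 for *Tubb2b*, chr17:57387693-57387752 for *Tubb4a*, chr2:25112323-25112382 for *Tubb4b* and chr17:36145877-36145936 for *Tubb5* on the minus strand, and at chr8:124148359-124148418 for *Tubb3* on the plus strand. *Tubb2a* and *Tubb2b* shared 57 of these 60 bases and 96.5% of their whole coding sequence. The bases that differ leave the encoded residues the same, so these tails do not tell *Tubb2a* and *Tubb2b* apart. *Tuba1a* and *Tuba1b* shared 98.3% of their coding sequence. The other pairs of beta-tubulins shared 80.2% to 85.9% of their coding sequence, and *Tubb3*, the only one printed above to end in AAG, shared between 25 and 31 of the last 60 bases with the other beta-tubulins.

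The first 12 coding bases hold the codons that the autoregulation reads, with the first 9 in capitals. They are shown for *Tuba1a*, for the beta-tubulins with the highest shares described below, *Tubb4a* and *Tubb5*, and for the neuronal isotype *Tubb3*.
Tuba1a: ATGCGTGAGtgc
Tubb3: ATGAGGGAGatc
Tubb4a: ATGCGGGAAatc
Tubb5: ATGAGGGAAatc

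These near copies limit the counts. Of all 50-base windows of the coding sequence, 93.9% in *Tuba1a* and 95.6% in *Tuba1b* also occurred in a transcript of another gene, against 4.45% in *Tubb3* and 0.311% in *Tubb4a*. After the coding sequence, the part a 3′ method reads, the share was 0 in *Tuba1a* and *Tubb2b*, 4.77% in *Tuba1b* and 0.493% in *Tubb5*. It was 99.5% in *Tuba4a*, whose transcripts overlap *Stk16* there, 87.3% in *Tubb2a*, which overlaps *Bphl*, 78.2% in *Tubb4b*, which overlaps *Cimip2a*, and 75.4% in *Tubb6*, which overlaps *Afg3l2*. Counting was done without strand, so reads of such a gene and its partner cannot be told apart, and values of these 4 members are uncertain to that extent.

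The libraries held 2118317 to 3296398 counts in the glial fractions, 761481 to 1017972 in WT neurons and 1473194 to 2017932 in KIN neurons, of which the members took 96 to 767 reads per library. The fewest were in microglia, with 96 to 197. The 10 most abundant transcripts held 75.97% to 85.65% of the counts of a library. Microglia followed their label, with summed levels of the 8 microglia markers at 797 to 1260 CPM (counts per 1000000 of the scaled library) and at most 13.0 CPM elsewhere. The 8 astrocyte markers summed to 649 to 963 CPM in WT and 366 to 395 CPM in KIN astrocytes, against at most 34.9 CPM elsewhere, but the 8 oligodendrocyte markers were in the same libraries at 443 to 698 CPM in WT and, above the astrocyte markers, at 797 to 814 CPM in KIN. The neuronal fraction did not stand apart by its own markers. The 9 neuronal markers summed to 68.3, 46.2 and 41.8 CPM in WT neurons and to 143, 43.2 and 116 CPM in WT astrocytes. In the test described below, 6 of the 9 differed between these groups, *Gad1* (the enzyme that makes GABA) higher in neurons and 5 lower, and synaptotagmin *Syt1* was at 3.25, 2.05 and 0 CPM in WT neurons against 16.6, 2.93 and 12.5 CPM in WT astrocytes. By group means erythrocyte markers were the highest list in that fraction, at 256 to 519 CPM in WT and 112 to 343 CPM in KIN neurons and at most 23.7 CPM elsewhere. The fractions are called by their labels below, and each difference between fractions is one between cell mixtures. In bulk RNA, fewer cells of a type and less RNA per cell cannot be told apart.

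Some libraries stood apart from the others of their group. By a chi-square of counts per degree of freedom, replicate 2 of WT microglia was at 45.6 and 21.7 from the others, which were at 9.26 from each other, replicate 2 of WT neurons at 18.5 and 17.6 against 1.91, replicate 1 of KIN microglia at 16.4 and 19.4 against 2.12, and replicate 2 of WT astrocytes at 9.67 and 5.33 against 2.24.

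Summed over the members, beta-tubulin was at 240.0 ± 22.6 CPM (SD, n = 3 here and below) in WT neurons, at 127 ± 15.8 CPM in WT astrocytes and at 33.6 ± 6.24 CPM in WT microglia. In KIN libraries the sums were 320.0 ± 53.2, 169 ± 5.3 and 29.0 ± 4.07 CPM. Alpha-tubulin kept the same order, at 69.4 ± 17.4, 47.2 ± 3.84 and 20.1 ± 5.76 CPM in WT neurons, astrocytes and microglia, and at 105 ± 14.1, 56.8 ± 9.55 and 16.6 ± 3.54 CPM in KIN.

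**Figure D1:**
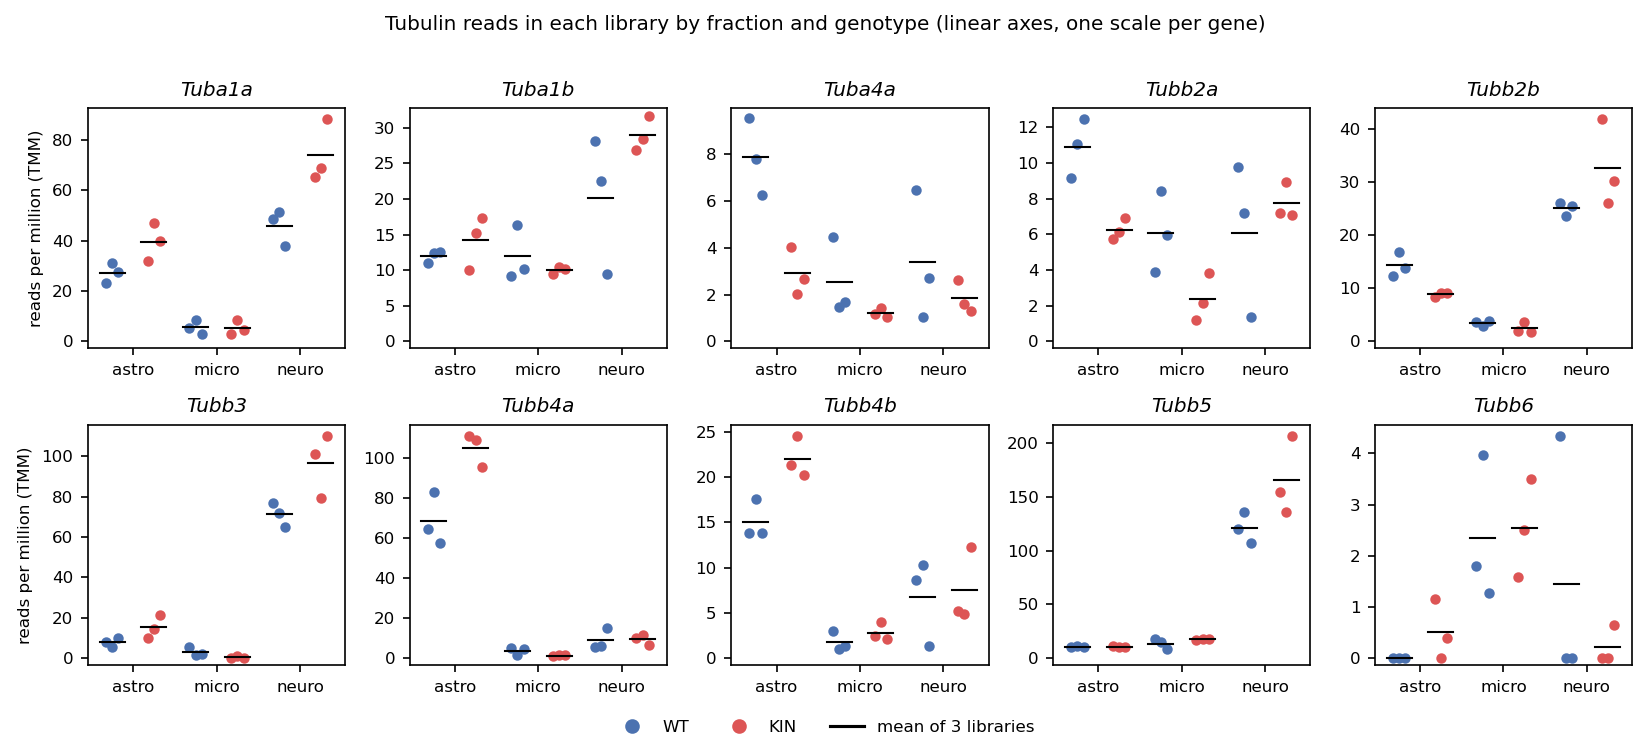
CPM of each member (1 panel per gene, vertical linear axis with its own scale) in the 18 libraries, by fraction and genotype, with points for libraries and black lines for the group mean. By group means *Tubb3* and *Tubb5* were highest in neurons, *Tubb4a* and *Tubb4b* in astrocytes and *Tubb6* in microglia, although the highest single library of *Tubb6*, at 4.34 CPM on 4 reads, was one of WT neurons.

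Shares of isotypes within a library do not depend on how libraries are scaled. Each transcript's reads were divided by its annotated length in kb, summed by name and given as a percent of all alpha- or all beta-tubulin. Reads come from 3′ ends, and the paper names length-based normalization for standard protocols, in contrast to this method. The division may therefore not suit these reads. Without it 14 of the 60 group medians moved by more than their SD. Such shares of reads are given for some members. They are descriptions, with no test.

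*Tuba1a*, the alpha-tubulin of growing neurons, led in every library of astrocytes, with medians of 58.5% in WT and 70.3% in KIN, and of neurons, with 80.2% and 71.6% (68.5% of reads in WT). In microglia it held 13.9% to 36.5%, below every library of the other fractions. *Tuba1b*, the widely used alpha-tubulin of dividing and non-neuronal cells, led there instead, with medians of 64.1% in WT and 64.4% in KIN and a range of 52.1% to 71.5% that no library of another fraction reached. Part of the share of *Tuba1b* came from a short transcript with a retained intron. With protein-coding transcripts alone its medians in microglia were 42.5% in WT and 37.4% in KIN, against 40.4% and 47.6% for *Tuba1a*.

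*Tuba4a*, the alpha-tubulin made without the final tyrosine, held 0.836% to 24.3% over the 18 libraries. Its shares overlapped between the fractions. By reads it held at most 23.4%, so the GAG end shown above was encoded by a minority of alpha-tubulin reads in each library.

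Among beta-tubulins each fraction had its own composition. *Tubb4a*, best known from myelinating oligodendrocytes, held 50.3% to 64.9% in astrocytes and at most 15.7% elsewhere. *Tubb4b*, a broadly used isotype also found in cilia, was second there with medians of 17.5% in WT and 18.3% in KIN. The lowest astrocyte library, at 17.4%, was above the highest of the other fractions at 16.7%, and by reads alone the fractions overlapped. By reads the median of *Tubb4b* in WT astrocytes was 11.8%, beside 11.7% for *Tubb2b*.

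*Tubb5*, the general beta-tubulin of many tissues, led in every library of neurons, at 51.0% to 58.9%, and in every library of microglia, at 28.0% to 62.6%. In astrocytes it held 5.41% to 10.2%. What set neurons apart from microglia was the isotype in the second place. *Tubb3*, the neuronal isotype with the AAG end, held 24.4% to 29.0% in neurons and at most 11.5% in any other library. *Tubb6*, a less studied isotype, held 4.56% to 12.4% in microglia and at most 1.56% elsewhere.

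**Figure D2:**
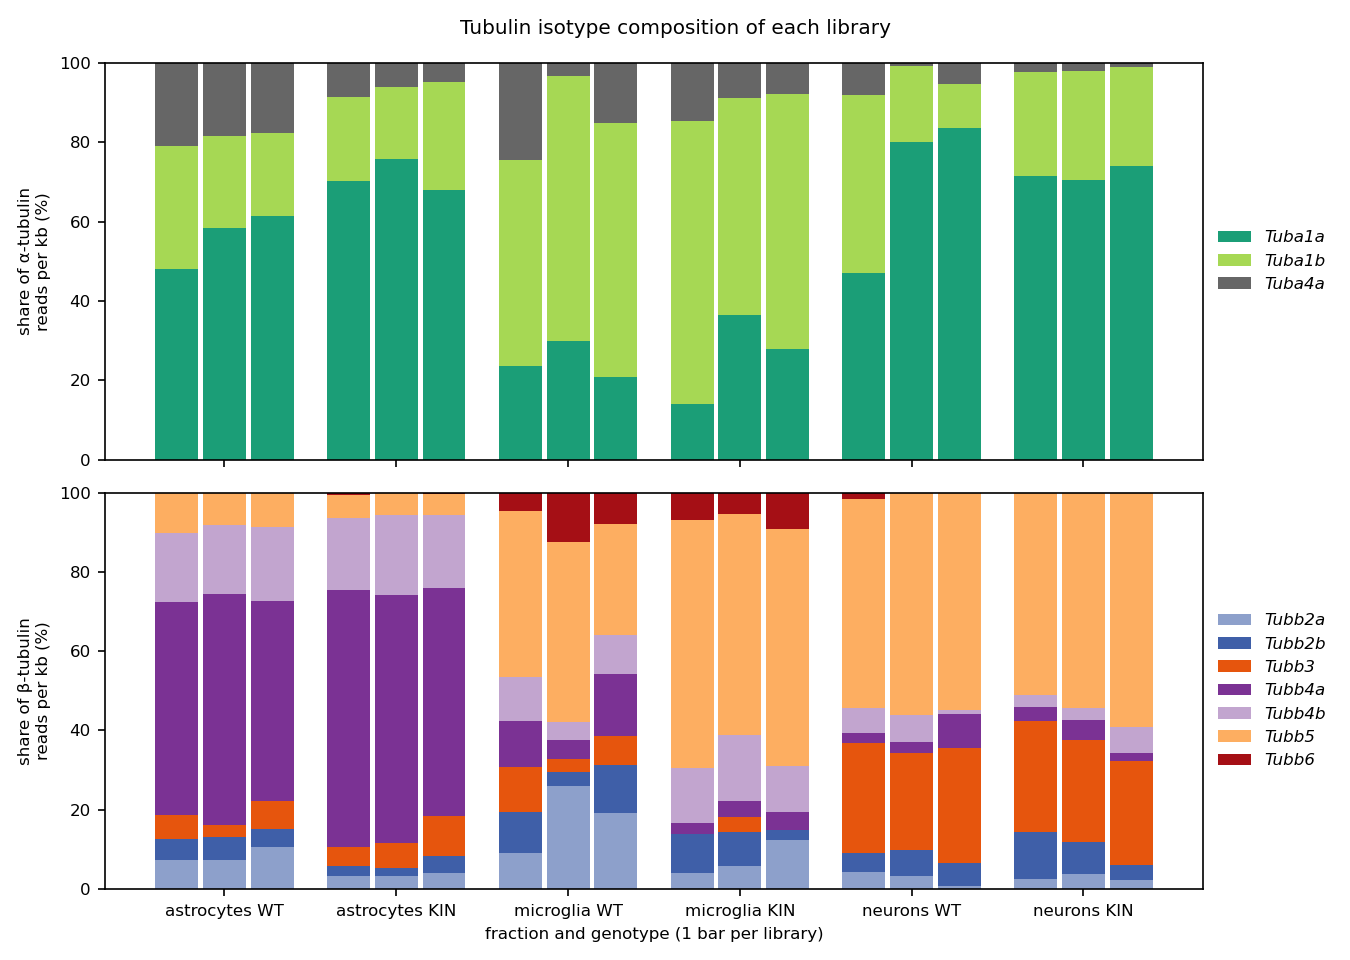
Isotype shares per kb (percent of alpha-tubulin or of beta-tubulin, stacked bars from 0 to 100) in each of the 18 libraries. *Tubb4a* made up 50.3% to 64.9% of beta-tubulin in astrocytes, and *Tubb5* with *Tubb3* made up most of it in neurons.

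To ask which members differ between fractions, edgeR's quasi-likelihood test was fitted to all genes of the 18 libraries, with 6 groups of fraction and genotype. A member was called where the p, adjusted by Benjamini-Hochberg over all genes, did not exceed 0.05 and the absolute log2FC was at least 1. Since comparisons of one genotype share their libraries, their values are set side by side and not counted as separate evidence.

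In WT neurons against WT astrocytes, 5 of 10 members were called, 3 higher and 2 lower, where 18.5% of 13552 genes were called. The count was 3 without replicate 2 of WT astrocytes and on the 6 libraries compared alone. The median log2FC of the members was 0.77, against -0.36 over all genes. In WT neurons against WT microglia 5 of 10 were called, all higher, against 17.2% of genes. In WT microglia against WT astrocytes 7 of 10 were called, 1 higher and 6 lower, against 24.4% of genes, with a median of -1.35 against -0.06.

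KIN libraries gave 6 of 10 members for neurons against astrocytes, 4 higher and 2 lower, where 26.3% of genes were called. For neurons against microglia they gave 9 of 10, 8 higher and 1 lower, against 23.0% of genes and with a median log2FC of 2.23 against 0 over all genes. For microglia against astrocytes they gave 7 of 10, 1 higher and 6 lower, against 32.3% of genes.

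**Figure D3:**
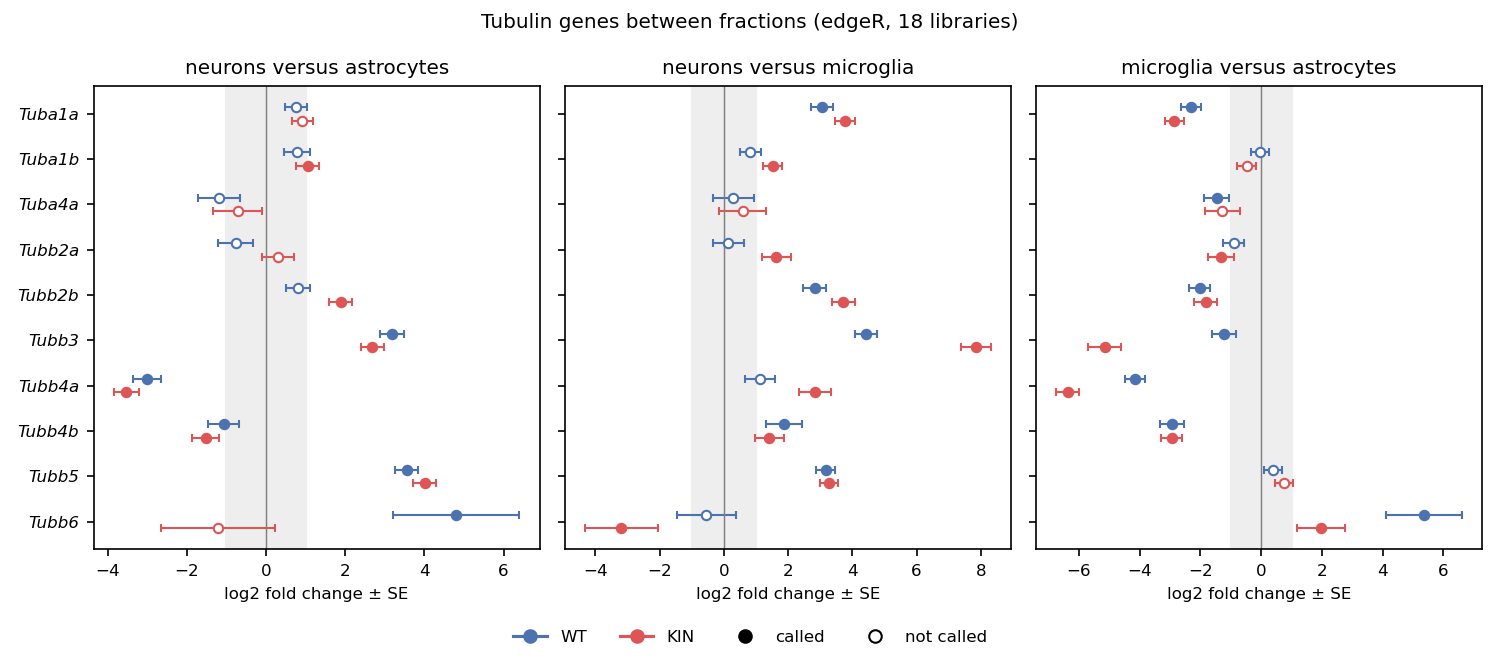
log2FC of each member (horizontal axis, bars for the standard error) for the 3 pairs of fractions in WT and in KIN libraries, with filled points for members called and a grey band for an absolute log2FC under 1. *Tubb3* and *Tubb5* were higher in neurons than in astrocytes in both genotypes, and *Tubb4a* was lower.

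The neuronal isotype *Tubb3* was at 77.0, 71.8 and 64.7 CPM in WT neurons and at 101, 79.5 and 110.0 CPM in KIN neurons. In astrocytes it was at 7.77, 5.53 and 10.0 CPM in WT and at 10.1, 14.3 and 21.1 CPM in KIN. Microglia had 5.38, 1.49 and 2.13 CPM in WT, and in KIN 3 reads in 1 library and none in the others. The 6 groups did not overlap with their neighbours in the order of means, KIN neurons being highest and KIN microglia lowest. *Tubb3* was 9.09-fold higher in WT neurons than in WT astrocytes (log2FC 3.18 ± 0.31 SE, edgeR adjusted p = 1.96e-16) and 6.44-fold higher in KIN (2.69 ± 0.28, adjusted p = 9.47e-15).

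Against microglia *Tubb3* was 21.4-fold higher in WT neurons (4.42 ± 0.35, adjusted p = 3.19e-21). For KIN the low count of microglia sets the precision, and 422 reads against 3 gave a ratio of 266 with a 95% counting interval of 90.4 to 1300.0 after scaling. *Tubb3* was also called lower in WT microglia than in WT astrocytes (-1.23 ± 0.40, adjusted p = 0.0121), a call lost without replicate 3 of WT astrocytes (-0.92) or without replicate 2 (-0.96) or 3 (-1.03) of WT microglia.

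*Tubb5* lay far apart between neurons and both glial fractions. It was at 120.0, 136 and 107 CPM in WT neurons and at 155, 136 and 207 CPM in KIN neurons. The glial fractions were at 8.09 to 17.9 CPM in all 12 libraries. The fold over WT astrocytes was 11.8 (3.56 ± 0.29, edgeR adjusted p = 1.11e-20) and over WT microglia 9.00 (3.17 ± 0.29, adjusted p = 8.57e-18), and the KIN folds were 16.1 (4.01 ± 0.29) and 9.60 (3.26 ± 0.28). Between the glial fractions *Tubb5* was not called in either genotype.

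*Tubb2b*, which like *Tuba1a* is mutated in human cortical malformations, was at 26.0, 23.6 and 25.6 CPM in WT neurons, at 12.4, 16.9 and 13.8 CPM in WT astrocytes and at 3.58, 2.98 and 3.83 CPM in WT microglia. The 3 groups were apart. The difference between neurons and astrocytes was called in KIN (1.89 ± 0.29, edgeR adjusted p = 3.3e-08) and stayed under the fold threshold in WT (0.80 ± 0.30, adjusted p = 0.0454). The step from microglia to neurons was called in both, at 2.82 ± 0.37 in WT and 3.72 ± 0.35 in KIN.

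Its near copy *Tubb2a* behaved differently. *Tubb2a* was at 9.18, 11.1 and 12.5 CPM in WT astrocytes, above every library of WT microglia, and overlapped WT neurons, at 9.76, 7.18 and 1.35 CPM, through 1 library. It was not called between WT neurons and WT astrocytes (-0.77 ± 0.43, adjusted p = 0.211). In KIN it was lower in microglia than in astrocytes (-1.33 ± 0.43, edgeR adjusted p = 0.00951; -1.04 and not called without replicate 1 of KIN microglia) and higher in neurons than in microglia (1.63 ± 0.46, adjusted p = 0.00418).

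*Tubb4a*, at 64.6, 83.2 and 57.4 CPM in WT astrocytes and at 111, 109 and 95.5 CPM in KIN astrocytes, was the counterpart of *Tubb5*. Neurons had 5.42 to 14.8 CPM and microglia 0.795 to 4.78 CPM. *Tubb4a* was 8.07-fold lower in WT neurons than in WT astrocytes (-3.01 ± 0.35, edgeR adjusted p = 1.97e-12) and 17.6-fold lower in WT microglia (-4.14 ± 0.33, adjusted p = 6.31e-22). In KIN the folds were 11.5 (-3.53 ± 0.31) and 82.3 (-6.36 ± 0.38), the latter on 2, 4 and 4 reads in KIN microglia. Oligodendrocyte markers moved with it, and all 8 of that list were called lower in microglia than in astrocytes in both genotypes, 7 of 8 lower in WT neurons and 8 of 8 in KIN neurons. Their summed level was at 443, 698 and 462 CPM in WT astrocytes, at 31.5 to 34.3 CPM in WT microglia and at 27.1, 275 and 22.9 CPM in WT neurons, and the part of oligodendrocytes in the level of *Tubb4a* was not tested. The WT neuronal library with 275 CPM had 6.15 CPM of *Tubb4a*, between the others at 5.42 and 14.8 CPM.

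*Tubb4b* was, like *Tubb4a*, highest in astrocytes. It was at 13.8, 17.6 and 13.8 CPM in WT astrocytes, at 0.992 to 2.99 CPM in WT microglia and at 8.67, 10.3 and 1.35 CPM in WT neurons. The difference between microglia and astrocytes was -2.93 ± 0.39 in WT (edgeR adjusted p = 4.25e-10) and -2.94 ± 0.35 in KIN (adjusted p = 3.5e-12). Its call between WT neurons and WT astrocytes (-1.07 ± 0.40, adjusted p = 0.0463) was lost in 9 of 16 alternatives, between -1.25 and -0.67, and that against WT microglia (1.86 ± 0.56, adjusted p = 0.00934) was lost without replicate 1 (1.69) or 2 (1.44) of WT neurons. Ependymal markers, of ciliated cells, summed to 24.4 to 27.3 CPM in WT and 44.9 to 54.2 CPM in KIN astrocytes, and their part in *Tubb4b* was not tested.

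The KIN value of *Tubb4b* for neurons against microglia (1.41 ± 0.45, adjusted p = 0.0123, edgeR) was lost without replicate 3 of KIN microglia (1.24) or of KIN neurons (0.85).

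*Tuba1a* was at 48.8, 51.3 and 37.8 CPM in WT neurons, at 23.3, 31.2 and 27.6 CPM in WT astrocytes and at 5.38, 8.43 and 2.98 CPM in WT microglia. It was 8.35-fold higher in WT neurons than in WT microglia (3.06 ± 0.34, edgeR adjusted p = 1.76e-13) and 4.95-fold lower in WT microglia than in WT astrocytes (-2.31 ± 0.32, adjusted p = 1.23e-09). Between neurons and astrocytes every neuronal library was higher in both genotypes, but the log2FC of 0.75 ± 0.28 in WT and 0.92 ± 0.26 in KIN stayed under the fold threshold. The KIN value passed it without replicate 2 of KIN astrocytes (1.06), with a filter at a mean of 10 counts (1.03) and on the 6 libraries compared alone (1.01). In KIN microglia it was at 2.78, 8.62 and 4.56 CPM, and both calls against microglia held there, at 3.78 ± 0.31 and -2.86 ± 0.31.

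*Tuba1b* was not called between WT fractions. It was at 11.0, 12.4 and 12.5 CPM in WT astrocytes, at 9.26, 16.4 and 10.2 CPM in WT microglia and at 28.2, 22.6 and 9.44 CPM in WT neurons, which overlap. The difference between WT microglia and WT astrocytes was -0.04 ± 0.30. Without replicate 3 of WT neurons *Tuba1b* was called higher in WT neurons than in WT astrocytes (1.07) and WT microglia (1.11). Against WT microglia it was also called without replicate 2 of WT microglia (1.08) and with a filter at a mean of 10 counts (1.11). In KIN neurons *Tuba1b* was at 26.9, 28.4 and 31.6 CPM, higher than in KIN microglia (1.52 ± 0.29, edgeR adjusted p = 1.44e-05). Its call against KIN astrocytes (1.05 ± 0.28, adjusted p = 0.00254) was lost in 7 of 16 alternatives, between 0.81 and 1.00.

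*Tuba4a* was at 9.54, 7.80 and 6.27 CPM in WT astrocytes, at 4.48, 1.49 and 1.70 CPM in WT microglia and at 6.50, 1.03 and 2.70 CPM in WT neurons. It was called lower in WT microglia than in WT astrocytes (-1.47 ± 0.42, edgeR adjusted p = 0.0035). That call was lost when the transcript with the highest mean count stood for the gene (-1.49). The difference between WT neurons and WT astrocytes was not called (-1.19 ± 0.54, edgeR adjusted p = 0.113), but was called without replicate 1 of WT neurons (-2.13, adjusted p = 0.0367), over its alternatives between -2.13 and -0.72. In the neuronal fraction 4 of the 6 libraries held 1 or 2 reads, which limits the precision of its comparisons.

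*Tubb6* had at most 10 reads in any library. All 3 WT astrocyte libraries had no read, where 3 reads would be 0.992 CPM on average, and WT microglia had 6, 8 and 3 reads (1.79, 3.97 and 1.28 CPM). This made *Tubb6* at least 2.37-fold higher in WT microglia than in WT astrocytes (edgeR adjusted p = 0.000327). KIN microglia had 4, 7 and 10 reads against 4, 0 and 1 in KIN astrocytes (1.97 ± 0.78, adjusted p = 0.0381), and this call was lost in 7 of 15 alternatives, between 1.58 and 2.09. Against KIN neurons, with 1 read in all, the ratio was 11.1 with a 95% counting interval of 1.79 to 459, and the call (edgeR adjusted p = 0.0281) was lost in 4 of 15 alternatives. The call in WT neurons against WT astrocytes rested on 4 reads in 1 neuronal library, without which the log2FC was 0, and no fold is given since both groups were at or near the floor of 3 reads.

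To ask what the KIN allele changes, the 6 libraries of a fraction were fitted and scaled by themselves. The CPM given here are scaled over 18 libraries, and the log2FC of neurons below are smaller than the ratio of these CPM. *Atxn2* itself was at 10.3 to 11.3 CPM in WT and 7.29 to 10.7 CPM in KIN astrocytes, and counts do not show the repeat, so they are no check of the genotype.

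In astrocytes 1 of the 9 members that passed the filter was called, where 8.84% of 11751 genes were called, and 4 of the 9 had an adjusted p of at most 0.05. 3 of these lay under the fold threshold. DESeq2 called none of the 9. Over all genes edgeR called 1039, and 1527 without replicate 2 of WT astrocytes against 573 to 831 without any other library. 7 of the 9 had an unadjusted p under 0.05 by edgeR, where 2927 of 11751 genes did, and 5 by DESeq2, where 1728 genes did.

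The member called was *Tuba4a*, at 9.54, 7.80 and 6.27 CPM in WT and 4.03, 2.05 and 2.68 CPM in KIN astrocytes. The genotypes did not overlap, and it was 2.55-fold lower in KIN (-1.35 ± 0.35, edgeR adjusted p = 0.00602). The call was lost with DESeq2 (-1.40), without replicate 1 of WT astrocytes (-1.20) and with the transcript of the highest mean count alone (-0.73).

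*Tubb2a* was at 9.18, 11.1 and 12.5 CPM in WT and at 5.76, 6.14 and 6.90 CPM in KIN (-0.82 ± 0.28, edgeR adjusted p = 0.0473), under the fold threshold. *Tubb2b* was at 12.4, 16.9 and 13.8 CPM in WT and at 8.35, 9.21 and 9.20 CPM in KIN (-0.71 ± 0.26, adjusted p = 0.060) and missed the threshold of p as well. For both, every KIN library was below every WT library. Neuronal markers were lower too. Of that list 8 of 9 were called lower in KIN astrocytes, their sum going from 143, 43.2 and 116 CPM to 29.1, 22.0 and 37.6 CPM, and the part of neuronal RNA in these 3 members was not tested.

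The neuronal isotype *Tubb3* went the other way from those markers. It was at 7.77, 5.53 and 10.0 CPM in WT and at 10.1, 14.3 and 21.1 CPM in KIN astrocytes, and the genotypes did not overlap (0.92 ± 0.28, edgeR adjusted p = 0.0217). It passed the fold threshold when replicate 3 of WT (1.15) or replicate 1 of KIN (1.19) was left out, and went down to 0.59 (adjusted p = 0.301) without replicate 3 of KIN.

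*Tubb4a* was at 64.6, 83.2 and 57.4 CPM in WT and at 111, 109 and 95.5 CPM in KIN astrocytes, again without overlap (0.61 ± 0.21, edgeR adjusted p = 0.0484). *Tubb4b* (0.53 ± 0.23, adjusted p = 0.128) and *Tuba1a* (0.50 ± 0.22, adjusted p = 0.126) had every KIN library above every WT library, and their adjusted p missed the threshold. *Tubb5* was at 9.72 to 10.7 CPM in WT and 9.97 to 10.7 CPM in KIN, with a log2FC of 0 and an SE of 0.26. Oligodendrocyte markers summed to 443, 698 and 462 CPM in WT and to 797, 797 and 814 CPM in KIN astrocytes, 2 of 8 called higher. The markers of astrocytes themselves summed to 652, 963 and 649 CPM in WT and to 366, 383 and 395 CPM in KIN, without overlap, with 3 of 8 called lower and none higher. The part of these cell types in *Tubb4a* and the other members was not tested.

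Isotype shares of astrocytes differed between the genotypes too. From WT to KIN the median share of *Tuba1a* in alpha-tubulin went from 58.5% to 70.3% and that of *Tuba4a* from 18.4% to 6.03%. Among beta-tubulins *Tubb2a* went from 7.43% to 3.38%, *Tubb2b* from 5.37% to 2.69% (11.7% to 5.29% of reads) and *Tubb5* from 8.77% to 5.78%. In each of these 5 the genotypes did not overlap, with or without division by length and with either set of transcripts. Shares within a family depend on each other, so these are not 5 separate changes. *Tubb5* lost share while its level, given above, had a log2FC of 0. How often the genotypes separate like this over all genes was not counted. *Tubb4a* went from 53.7% to 62.6%, where the genotypes overlapped per kb and not by reads.

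**Figure D4:**
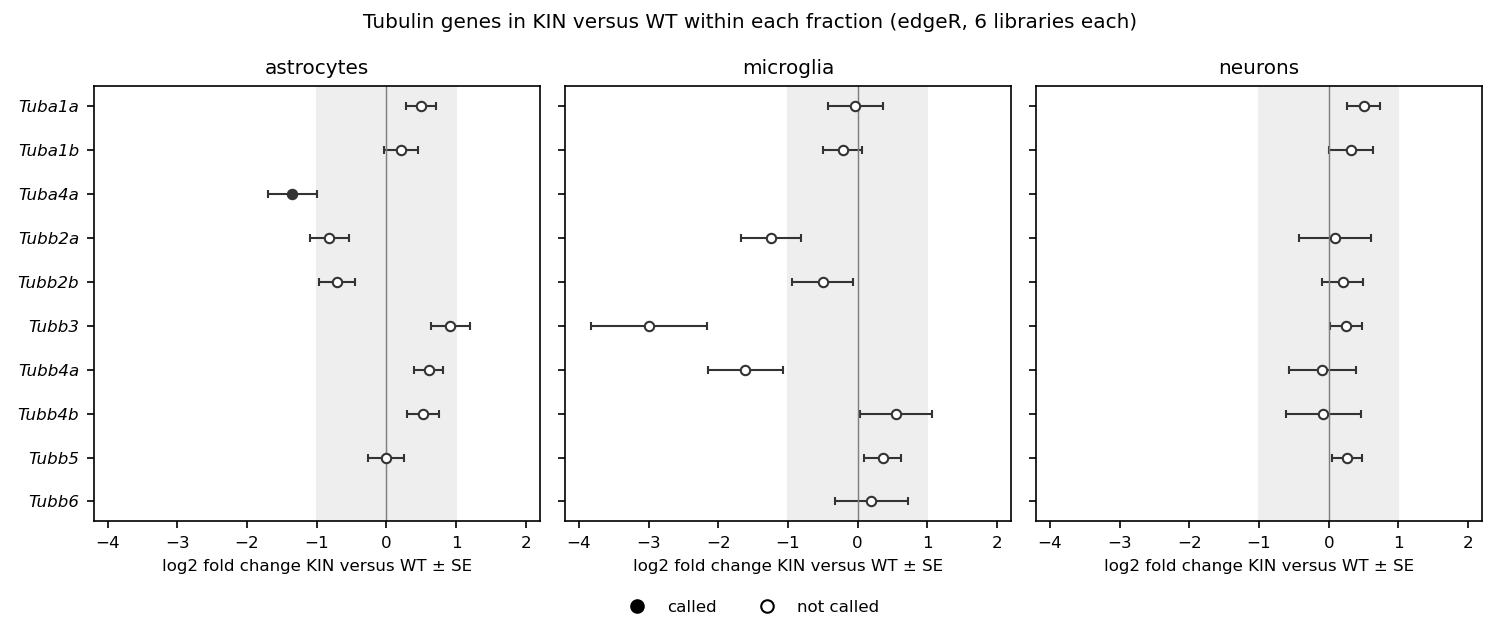
log2FC of KIN against WT (horizontal axis, bars for the standard error) of each member tested in astrocytes, microglia and neurons. *Tuba4a* in astrocytes, at -1.35, is the only filled point, the sign of a member called. The grey band marks an absolute log2FC under 1, and members that did not pass the filter in a fraction have no point.

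In microglia none of the 9 members tested was called by edgeR or by DESeq2, where edgeR called 1.52% of 10831 genes. By either tool 3 members had an unadjusted p under 0.05, where 1304 genes did by edgeR and 644 by DESeq2. *Tubb3* was at 5.38, 1.49 and 2.13 CPM in WT, and in KIN at 0, 1.08 and 0 CPM, on 26 reads against 3 (-2.99 ± 0.83, edgeR adjusted p = 0.0641). It was called in 4 alternatives, and a library left out moved it between -6.11 and -2.43, the first without replicate 2 of KIN microglia, which held all 3 reads, so that the value then depends on the prior count. *Tubb4a* was at 4.78, 1.49 and 4.68 CPM in WT and at 0.795, 1.44 and 1.40 CPM in KIN (-1.61 ± 0.54, adjusted p = 0.147), and *Tubb2a* at 3.88, 8.43 and 5.96 CPM and at 1.19, 2.15 and 3.86 CPM (-1.24 ± 0.43, adjusted p = 0.175). DESeq2 gave no adjusted p for these 3. Without replicate 2 of WT microglia edgeR called 453 genes in place of 165, and with any other library left out 35 to 48. Among the 453 were *Tubb3* (-3.29, adjusted p = 0.0121) and *Tubb4a* (-1.92, adjusted p = 0.0184).

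In all 3 the lowest WT library was above the highest KIN library, and in *Tubb4a* and *Tubb2a* the gap was 1.49 against 1.44 and 3.88 against 3.86 CPM. Neuronal markers moved with them, from 67.8, 19.8 and 57.0 CPM to 11.5, 13.3 and 10.9 CPM with 5 of 9 called lower, as did oligodendrocyte markers, at 31.5 to 34.3 CPM in WT and at 18.7 to 20.5 CPM in KIN. Their part in these members was not tested. The leading beta-tubulin of microglia, *Tubb5*, was at 17.3, 14.4 and 8.09 CPM in WT and at 16.7, 17.9 and 17.2 CPM in KIN (0.36 ± 0.26, adjusted p = 0.685), and its median share was 41.8% in WT and 59.9% in KIN, without overlap on each of the 4 ways of counting. *Tubb6* did not differ beyond its error (0.20 ± 0.52, adjusted p = 0.954).

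**Figure D5:**
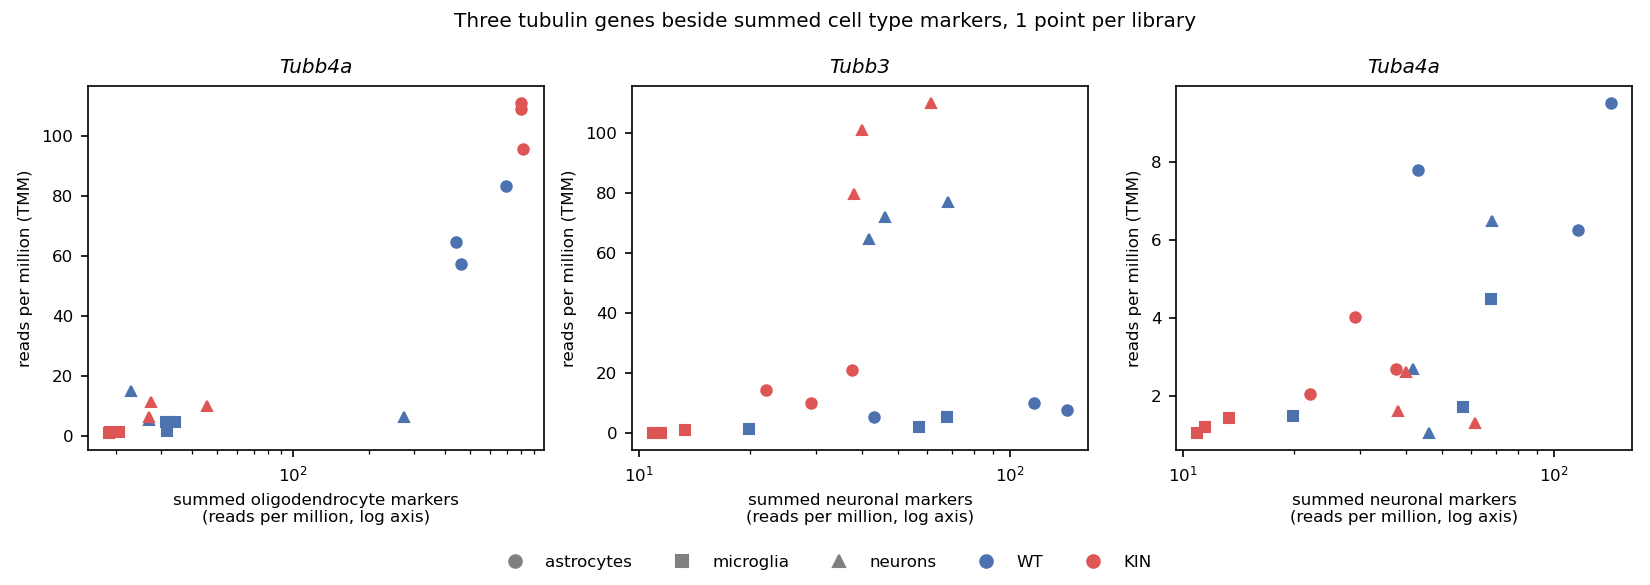
CPM of *Tubb4a*, *Tubb3* and *Tuba4a* (vertical axes, linear) against the summed CPM of the oligodendrocyte markers for *Tubb4a* and of the neuronal markers for the others (horizontal log axes), with 1 point per library, shapes for fractions and colours for genotypes. The astrocyte libraries hold the highest *Tubb4a* and 443 to 814 CPM of oligodendrocyte markers, and KIN astrocytes have lower neuronal markers, 22.0 to 37.6 CPM against 43.2 to 143 CPM in WT, beside 10.1 to 21.1 CPM of *Tubb3* against 5.53 to 10.0 CPM in WT.

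In neurons none of the 8 members tested was called by either tool, where edgeR called 0.0739% of 6765 genes. At an unadjusted p under 0.05 there was 1 member by edgeR, against 341 of 6765 genes, and none by DESeq2, against 134 genes. This was *Tuba1a*, at 48.8, 51.3 and 37.8 CPM in WT and at 65.5, 68.9 and 88.3 CPM in KIN neurons (0.50 ± 0.24, adjusted p = 0.968). *Tubb3* (0.25 ± 0.23), *Tubb5* (0.26 ± 0.22) and *Tubb2b* (0.20 ± 0.29) differed by about their error. The sign of *Tubb4a*, at 5.42, 6.15 and 14.8 CPM in WT and at 9.83, 11.4 and 6.45 CPM in KIN, turned from -0.09 to 0.51 without the highest WT library.

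Whether the KIN effect differs between fractions was tested by the interaction in the fit of 18 libraries. The median of all genes was -0.05 for microglia minus astrocytes, but 0.28 for neurons minus astrocytes and 0.29 for neurons minus microglia, and values of neurons are to be read relative to that. For microglia minus astrocytes 2 of 10 members were called, both lower, where 0.819% of genes were called. *Tubb3*, higher in KIN astrocytes and lower in KIN microglia, had a difference of -3.92 ± 0.78 (edgeR adjusted p = 0.00149), which was not called without replicate 1 of WT microglia (-3.08) and was at -6.80 without replicate 2 of KIN microglia. *Tubb4a*, with the same pair of directions, had -2.22 ± 0.58 (adjusted p = 0.0325), and the call was lost in 8 of the 12 fits that left out a library, between -2.34 and -1.95.

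For neurons minus microglia 1 of 10 was called, where 0.14% of genes were called. It was again *Tubb3* (3.42 ± 0.76, edgeR adjusted p = 0.0191), on the same libraries of microglia. This call was lost with DESeq2 (3.44), with a filter at a mean of 10 counts (3.31) and in 4 fits without a library (2.58 to 3.33), and was at 6.31 without replicate 2 of KIN microglia. For neurons minus astrocytes none of the 10 was called by either tool, where edgeR called 0.708% of genes. There 2 members had an unadjusted p under 0.05 by each tool, where 1670 of 13552 genes did by edgeR and 1283 by DESeq2. By edgeR the 2 members were *Tubb2b* (1.09 ± 0.41, adjusted p = 0.208) and *Tubb6* (adjusted p = 0.16), the latter on 4 reads of 1 WT neuronal library.

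Some genes had nearly the same profile as a member over the 6 groups. Likeness was the root mean square difference of centred mean log2 CPM, with a prior count of 2, and the 3 closest of 13552 genes were taken. The prior count narrows differences of genes near the floor. Among these are *Cdca7*, at 0.171 CPM in KIN astrocytes, and *Iglon5*, at 0 CPM in KIN microglia. For *Tubb4a* they were *Aplp1* (0.15), *Csrp1* (0.25) and *Efnb3* (0.28). *Aplp1* went from 88.0 CPM in WT to 140.0 CPM in KIN astrocytes, and was at 2.66 CPM in KIN microglia.

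For *Tubb5* the closest were *Mex3a* (0.12), *Tmsb10b* (0.18) and *Cdca7* (0.23), and for *Tubb2b* *Sbk1* (0.13), *Carmil3* (0.26) and *Samd14* (0.29). *Tubb3* had no gene as near, its closest being *H2bc27* (0.51), *Stmn1* (0.64) and *H1f10* (0.69). Those of *Tuba1a* were *Efs* (0.17), *Dchs1* (0.27) and *Pipox* (0.27), and of *Tuba1b* *Tcf4* (0.10), *Smc4* (0.10) and *Maf1* (0.11). *Tuba4a* was nearest to *Syn2* (0.13), which encodes a synaptic vesicle protein, *Cap2* (0.15) and *Tub* (0.16). For *Tubb2a* they were *Iglon5* (0.11), *Gucy1a1* (0.15) and *Sgsm1* (0.17), and for *Tubb4b* *Usp54* (0.15), *Tspan15* (0.18) and *Agpat4* (0.18).

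Genes that act on tubulin were described by 5 lists. Stathmins bind free dimers and katanin and spastin cut microtubules. Of this list of 11, 4 were called in WT neurons against WT astrocytes, 3 higher and 1 lower, where 18.5% of all genes were called, with a median log2FC of 0.36 against -0.36 over all genes. The count was 2 without replicate 1 of WT neurons. The stathmins did not move in 1 direction. *Stmn1* was at 43.4, 61.5 and 49.9 CPM in WT neurons and 17.7, 20.8 and 16.6 CPM in WT astrocytes (1.49 ± 0.27, edgeR adjusted p = 7.19e-06). *Stmn4* was lower in neurons, at 16.3, 10.3 and 6.74 CPM against 31.4, 35.1 and 32.0 CPM (-1.53 ± 0.34, adjusted p = 0.000242). In KIN against WT astrocytes 2 of the 9 tested were called, against 8.84% of all genes, and between 0 and 3 over the alternatives, *Stmn4* higher at 62.8, 69.6 and 74.4 CPM (1.05 ± 0.21, adjusted p = 0.000356) and *Stmn2* lower (-1.47 ± 0.47, adjusted p = 0.0309).

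Enzymes that modify the tails and lumen of tubulin formed a list of 26, of which 21 were tested across fractions. In WT neurons against WT astrocytes 5 were called, 2 higher and 3 lower, a share near the 18.5% of all genes. They were 3 without replicate 2 of WT neurons, 2 with 1 transcript per name and 0 with a filter at a mean of 10 counts. The tubulin acetyltransferase *Atat1* was at 11.9, 12.3 and 9.44 CPM in WT neurons and 2.47, 3.58 and 1.25 CPM in WT astrocytes (2.2 ± 0.47, edgeR adjusted p = 0.00014), and *Ttll7*, which adds glutamates to beta-tubulin tails, was at 1.08, 0 and 0 CPM against 8.83, 7.15 and 9.09 CPM (-4.27 ± 0.88, adjusted p = 6.94e-05). In WT microglia against WT astrocytes 3 of the 21 were called, all lower, where 24.4% of all genes were called. Among them was the deacetylase *Sirt2* (-1.19 ± 0.29, edgeR adjusted p = 0.000511). In KIN against WT astrocytes 2 of 18 were called, near the 8.84% of all genes, and 0 with DESeq2, with 1 transcript per name or without replicate 1 or 3 of WT astrocytes. They were *Atat1*, higher (1.28 ± 0.39, adjusted p = 0.021) and *Ttll10*, lower (-2.60 ± 0.70, adjusted p = 0.00889).

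Folding cofactors and prefoldin, which assemble the dimer, were 13 genes, 11 of them tested. In WT neurons against WT astrocytes 2 were called, where 18.5% of all genes were, and 1 or 0 in 10 of 16 alternatives. They were the prefoldin subunit *Pfdn1* higher (1.35 ± 0.44, edgeR adjusted p = 0.0182) and *Tbcel* lower (-1.80 ± 0.61, adjusted p = 0.0257). In KIN against WT astrocytes 2 of 11 were called in opposite directions, against 8.84% of all genes, and 1 to 4 with a library left out (4 without replicate 2 of WT astrocytes, 1 without replicate 1 of WT or replicate 3 of KIN). The alpha-tubulin cofactor *Tbcb* was at 10.4, 15.9 and 13.0 CPM in KIN and 2.83, 5.85 and 3.76 CPM in WT (1.59 ± 0.31, adjusted p = 0.000255), and *Tbce*, another alpha-tubulin cofactor, was at 2.88, 4.09 and 3.07 CPM against 6.71, 6.50 and 7.53 CPM (-1.09 ± 0.34, adjusted p = 0.0265). In KIN microglia against KIN astrocytes 6 of 11 were called, 1 higher and 5 lower, against 32.3% of all genes, and 3 with protein-coding transcripts or a filter at a mean of 10 counts, among them *Arl2* (-2.14 ± 0.34).

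Of the 10 other tubulin genes, which include the gamma-, delta- and epsilon-tubulins, 3 were tested across fractions, and 1 was called in the 6 comparisons, *Tube1* in KIN microglia against KIN astrocytes (2.14 ± 0.87, adjusted p = 0.0456, at most 5 reads in a library), where 32.3% of all genes were called. That call was lost with DESeq2 and with any of the 6 libraries left out. *Ttc5* and *Scaper*, the pair of autoregulation genes, were called in none of their 22 tests by edgeR or DESeq2, and none had an unadjusted p under 0.05 by either. Between the genotypes, none of the 41 genes of the 5 lists tested in microglia was called by either tool, where edgeR called 1.52% of all genes, with 4 at an unadjusted p under 0.05 by edgeR, against 1304 of 10831 genes, and 2 by DESeq2. Of the 29 tested in neurons none was called, where edgeR called 0.0739% of all genes, with 3 at that p by edgeR, against 341 of 6765 genes, and 1 by DESeq2.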

How the data were processed

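RNA of the 18 libraries was depleted of ribosomal RNA, given poly(A) tails and read near 3′ ends. The authors removed duplicates by molecular tags, trimmed reads, mapped them to mm39 and counted without strand; the submitters' processing notes name cutadapt 4.6, FastQC 0.11.9, MultiQC 1.23, Bowtie2 2.4.4, HTSeq 2.0.2 and DESeq2. Their annotation release is not given in the sources used here. The deposited values are whole-number counts per transcript, without normalization. Another 36 columns of per-sample values, and the authors' own comparisons (fold change and p), were not used.

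Counts were summed by name, and 99.4% of transcripts were found in GENCODE M39. The 137 identifiers without a name held 0.0222% of counts and stayed as they were. Genes reaching 5 reads in 2 or more libraries were kept and scaled by TMM (CPM are per 1000000 of the scaled library), and tested with the quasi-likelihood test of edgeR 4.0.16 in R 4.3.3 with Benjamini-Hochberg adjustment. Comparisons of fractions and interactions used all 18 libraries, and KIN against WT the 6 of a fraction. The log2FC use a prior count of 0.125, SE were derived from the log2FC and its F statistic or, under an absolute log2FC of 0.05, from the information of the fit, and 3 reads per library were the floor. Counting intervals are exact, cover 95% and, like floors, counting error only. The script was tested on simulated data.

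Groups came from the sample labels. The labels call the 3 libraries of a group biological replicates. No pair of replicates agreed within counting noise. All 10 members are named, with at most 3 called genes per list and comparison, those of largest absolute log2FC. Members and lists were chosen with earlier results of these data known. Alternatives were DESeq2 1.42.0, its size factors, TMM without the 10 most abundant genes, no filter, a filter at a mean of 10 counts, 1 transcript per name, protein-coding transcripts, adjusted p alone, other sets of libraries, a replicate block and each library left out. The nearest genes of *Tubb6* and the coding ends of 2 members are not reported here.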

Additional observations from a re-analysis of the deposited data

Results flagged for a closer look

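The KIN effect on *Tubb3* differed between microglia and astrocytes by a log2FC of -3.92 ± 0.78, tested as an interaction with edgeR (adjusted p = 0.00149). *Tubb3* was higher in all 3 KIN astrocyte libraries than in WT and lower in all 3 KIN microglia libraries, 2 of which had no read. This call was lost in 1 of 21 alternatives. *Tubb4a* differed between the same fractions by -2.22 ± 0.58 (edgeR adjusted p = 0.0325), with all 3 libraries higher in KIN astrocytes and lower in KIN microglia. That call was lost in 8 of 21 alternatives. Oligodendrocyte markers moved in the same pair of directions, and their part was not tested. The KIN effect on *Tubb3* also differed between neurons and microglia, by 3.42 ± 0.76 (edgeR adjusted p = 0.0191), a call lost in 6 of 21 alternatives. The first and the last rest on the same 6 libraries of microglia, with 26 reads of *Tubb3* in WT and 3 in KIN, and are not separate evidence. With 3 libraries in a group, single values of a member were not tested for lying far from the others.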

How the results depend on the processing

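Of the 116 member log2FC, 110 kept direction and call with DESeq2 and 114 with its size factors; of 872 values with a library left out, 820 did, 37 lost a call, 10 gained one and 5 turned. A sign change within the SE of an uncalled value was not counted. Size factors moved the median of all genes by -0.11 in KIN neurons against astrocytes, and by -0.15 and -0.14 in the interactions of neurons with astrocytes and with microglia, whose share of higher calls went from 77.1% to 61.2% and from 68.4% to 45.5%. The fractions came one after another from the same brain, but the labels do not say that a number marks one brain. The paper describes same-sex littermates of both genotypes, in male and female pairs, and the labels give neither. Libraries were not treated as paired. Deviations of same-numbered fractions of one genotype correlated between -0.037 and 0.209, over 0.1 in 1 of 18 pairs. With other numbers they correlated between -0.140 and 0.071, over 0.1 in 0 of 36 pairs. Same-numbered libraries of both genotypes of a fraction correlated between -0.063 and 0.054. With the replicate block, 115 of 116 values kept their call; *Tubb6* in KIN microglia against astrocytes lost it (1.99).

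Members called in WT neurons against astrocytes were 5, and 3 on the 6 libraries alone (3 to 5 with a library left out). In the interaction of microglia and astrocytes they were 2 (0 to 2). For neurons and microglia they were 1, and 0 with DESeq2 and with the mean filter (0 to 1). In KIN against WT astrocytes they were 1, but 4 by adjusted p alone and 0 with DESeq2 or 1 transcript per name (0 to 2). In microglia they were 0, but 1 without a filter, with protein-coding transcripts and in the fit of all 18 libraries (0 to 2).

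Ranges with a library left out are in brackets. Directions turned for *Tuba4a* in WT neurons against microglia [-0.66 to 1.06] and *Tubb6* in the interaction of neurons and microglia [-5.03 to 2.21], both without replicate 1 of WT neurons; for *Tubb4a* in KIN against WT neurons [-0.36 to 0.51] and in the interaction of neurons and astrocytes [-0.76 to 0.04] without replicate 3 of WT neurons; and in that of microglia and astrocytes for *Tuba4a* with 1 transcript per name (-0.77) and for *Tubb4b*, which lay at 0, without replicate 1 of WT microglia [-0.32 to 0.72]. *Tubb6* in WT neurons against astrocytes went from 4.80 to 0 without the neuronal library that held its reads. The cause was not tested.

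Shares of leading isotypes moved with length and transcripts. By longest transcript and by protein-coding transcripts *Tuba1a* was 73.4% and 67.1% in WT astrocytes, 80.9% and 78.9% in KIN astrocytes and 81.0% and 82.1% in KIN neurons (69.7% by reads), *Tuba1b* 48.9% and 42.5% in microglia of WT, 51.7% and 37.4% in those of KIN, and *Tubb4a* 57.9% and 58.5% in WT astrocytes. *Tubb5* was 55.9% in KIN microglia by longest transcript, and 49.7% by reads and 53.0% by protein-coding transcripts in WT neurons.

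The depth limits *Tubb6*, *Tuba4a* outside astrocytes and *Tubb3* and *Tubb4a* in KIN microglia, each with few reads.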
